A study of Mus musculus with 43 samples.

Results

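The keratins are the cytoplasmic intermediate filament proteins of epithelial cells, and their genes were followed here through the reprogramming of mouse fibroblasts to pluripotency. Members were taken as every gene whose symbol is Krt followed by a number and at most a single letter. This gave 51 of the 38964 genes shared by the deposited tables, and the same 51 identifiers stood in all 5 tables. The genes lie in 2 clusters, 27 on chromosome 11 and 24 on chromosome 15 (GRCm38). By textbook class, 5 are keratins of simple epithelia (Krt7, Krt8, Krt18, Krt19 and Krt20), 18 are keratins of stratified epithelia, 23 belong to hair and its root sheath, and 5 belong to none of these groups. By sequence type, 27 are acidic type I keratins, 23 are basic type II keratins, and Krt222 has no type.

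A keratin filament is an obligate polymer of a type I and a type II protein in equal amounts, so the genes are usually described in pairs. Krt8 with Krt18 is the pair of simple, single-layered epithelia and of the early embryo, and Krt19 often joins or replaces Krt18. Krt5 with Krt14 marks the basal layer of stratified epithelia. Krt6a and Krt6b with Krt16 and Krt17 are associated with injured or hyperproliferative epidermis, and Krt4 with Krt13 with internal stratified epithelia such as the oesophagus. Fibroblasts rely mainly on vimentin, and gain of epithelial genes is a known early step of reprogramming.

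Poly(A) RNA-seq was available for 43 libraries, of which 34 follow 4 cell systems through reprogramming and 9 alter Myc. Each system started from mouse embryonic fibroblasts (MEF) with a doxycycline-inducible cassette of Oct4, Klf4, Sox2 and Myc. All courses shared doxycycline induction in serum and LIF at low oxygen, and later a change of medium, with MEK and GSK3 inhibited and LIF kept. The NuRD-depleted class held Mbd3f/- (a floxed and a null allele of Mbd3; 11 libraries: MEF, days 1 to 8, an induced pluripotent line called iPSC, and embryonic stem cells called ES) and Gatad2a-/- (10 libraries, the same stages without ES). Mbd3 and Gatad2a belong to NuRD, which remodels nucleosomes and deacetylates histones. The wild-type class held WT-1 (7 libraries: MEF, days 2, 4, 6 and 8, iPSC and V6.5 ES) and WT-2 (6 libraries, without ES), which is isogenic to Gatad2a-/-. The Myc libraries came from Mbd3f/- cells. On day 4 these cells overexpressed OSK (Oct4, Sox2 and Klf4) with cMyc, cMyc alone or OSK alone. The others came from a secondary Mbd3f/- line whose inducible cassette holds OSK without Myc. They were treated with siRNA against cMyc, lMyc and nMyc (days 3 and 7), a Myc inhibitor (day 3) or scrambled siRNA (day 7, and 2 MEF libraries).

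Values are FPKM, fragments scaled to transcript length and to the mapped fragments of the library, in which levels of different genes can be compared per length. The 5 tables, 1 for each system and 1 for the Myc libraries, were normalized separately, so levels of different tables are only set side by side. Each stage of a system is 1 library, n counts systems, and nothing in the labels says that libraries came from separate cultures. Depth is unknown. A listed 0 can be a failed estimate, since every library lists all 37 mitochondrial genes at 0. Libraries of days 3 to 8, iPSC and ES were plated on irradiated human fibroblasts, so time, medium and feeder layer cannot be told apart. Fewer cells of a type and less RNA per cell cannot be told apart either. The Mbd3 level was 36.3 to 96.5 in Mbd3f/-, 75.3 to 117 in WT-1 and 53.0 to 135 in WT-2. The Gatad2a level was 8.59 to 14.7 in Gatad2a-/- and 9.17 to 38.5 in WT-2, ranges that overlap, and a level of the whole gene does not show whether a deleted exon is absent.

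A single library stood apart in its keratins before any induction. The Gatad2a-/- MEF library had 13 keratins at an FPKM of 1 or more, against 7 in the Mbd3f/- MEF, 3 in WT-1 and 2 in WT-2. This library also had more genes of any kind at 1 or more, 15907 against 13856, 12546 and 13845. Its summed keratin level was 218 against 46.4, 16.4 and 6.99. It alone among the 43 libraries expressed Krt4, at 18.98, with Krt13 at 37.1, Krt15 at 23.3 and Krt5 at 5.87. Its fibroblast markers Col1a1, Col1a2, Col3a1, Thy1, Pdgfra and Postn were all expressed, with a summed level of 3772 against 2518 to 7336 in the other 3 MEF libraries. All 4 mesothelial markers (Msln, Upk3b, Wt1 and Lrrn4) were at 1 or more there, with a sum of 80.6 against 1.17 to 41.3 in the other MEF. Of 14 keratinocyte markers other than keratins, 8 were at 1 or more, with Flg at 0, against 4 to 5 in the other MEF. Their sum was 57.9, against 25.3 to 53.7. The part of such cells in the keratin levels was not tested. Results against MEF are therefore given with and without this library. Without it the depleted MEF are a single library, which is assumed to vary like the other groups.

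Across all libraries, 21 of the 51 keratins reached an FPKM of 1 in at least 1 library: all 5 simple keratins, 12 of the 18 stratified keratins, the hair keratins Krt81 and Krt84, and Krt42 and Krt80. The other 30, among them 21 of the 23 hair keratins, stayed under 1 in every library. The highest level among those 30 was 0.964, of Krt23, and the lowest maximum among the 21 was 1.26, of Krt81. No keratin was expressed in all 43 libraries. An FPKM of 10 was reached by 13 keratins. Type I keratins outweighed type II in most libraries. The summed type I level was 6.93 to 16.8 times the type II level in the 4 iPSC libraries and 0.472 to 3.34 times in the 16 libraries of depleted days 1 to 8.

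**Figure D1:**
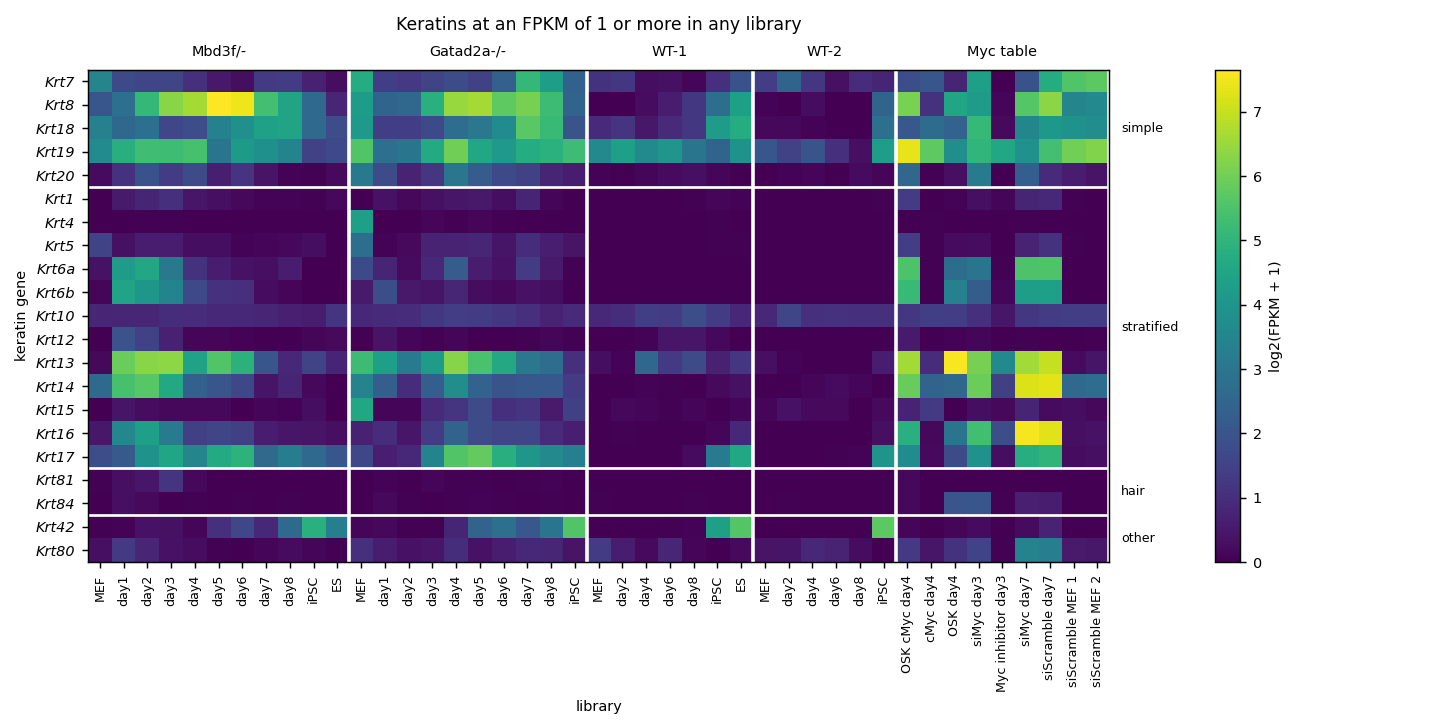
Level of the 21 keratins that reached an FPKM of 1, as log2(FPKM + 1) by colour, with genes in rows grouped by class and the 43 libraries in columns grouped by table. The depleted days 1 to 8 hold a broad block of stratified keratins, and the WT days are dark for nearly all genes. A similar block stands in the Myc columns of OSK with and without cMyc, siRNA against Myc, and scrambled siRNA on day 7. Krt42 is bright in the iPSC and ES columns.

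The number of keratins expressed differed between stages and systems. Depleted days 1 to 8 held 19 different keratins, with 5 to 14 per library (median 10.5). WT days 2 to 8 held 6 (Krt7, Krt8, Krt10, Krt13, Krt18 and Krt19), with 1 to 5 per library. Over the matched days 2, 4, 6 and 8, 10 keratins reached 1 in a depleted library and in no WT library, and 0 did so in a WT library only. These 10 were Krt6a, Krt6b, Krt12, Krt14, Krt15, Krt16, Krt17, Krt20, Krt42 and Krt80. The share of all genes that did so was not counted, so nothing particular to keratins is read from this. On those days 12262 to 13247 genes were at 1 or more in Mbd3f/-, 15481 to 16888 in Gatad2a-/- and 12737 to 13977 in WT. The 4 iPSC libraries held 6 to 9 keratins each, and Krt8, Krt17, Krt18, Krt19 and Krt42 were at 1 or more in all 4. In the MEF libraries only Krt7 and Krt19 were at 1 or more in all 4. The 4 MEF libraries together held 13 keratins, and 8 without the Gatad2a-/- library.

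Fitted comparisons used limma on log2(FPKM + 1) with the system as a block, and a change of log2(FPKM + 1) understates changes at low levels. Genes needed an FPKM of at least 1 in 2 libraries, which 16 of the 51 keratins met (17 in the daily course of the depleted systems). A keratin that passed through the libraries in which it is high had to differ between some of them, so counts below describe these keratins and do not stand for the family. The share of all tested genes called is given beside each count. An adjusted p under 0.05 is called.

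The simple keratins Krt8 (type II) and Krt18 (type I) are neighbours in the chromosome 15 cluster. Krt8 lies at chr15:101996698-102004482 on the minus strand and Krt18 at chr15:102028180-102032027 on the plus strand, with 23697 bases between them, so they point away from each other. Their upstream sequences are shown because the 2 genes did not move together, as the values below give. They come from RefSeq (GRCm38.p6), read 5′ to 3′ on the gene's strand, and begin 250 bases before the RefSeq start. They stop before the first base that lies in an annotated exon. This leaves out the 140 bases nearest the start for Krt8 and the nearest 36 for Krt18. The Krt8 stretch is chr15:102004483-102004592 and that of Krt18 is chr15:102027966-102028179. Capitals mark matches, on either strand, to any of 4 motifs. The TATA box was searched as TATAAA. For factors of the AP-1 family the letters were TGANTCA, with any base at N. The GC box, bound by factors such as Sp1, was searched as GGGCGGG. For factors of the AP-2 family, which include the products of Tfap2a and Tfap2c, the letters were GCCNNNGGC. Krt18 holds 1 AP-2 match, GCCCCCGGC, whose first base lies 83 bases before the start, and 11.5% of all 32851 promoters hold this motif in a window of that length. Krt8 holds 0 matches to the 4 motifs in 110 bases, and the 140 bases nearest its start were not searched.
Krt8: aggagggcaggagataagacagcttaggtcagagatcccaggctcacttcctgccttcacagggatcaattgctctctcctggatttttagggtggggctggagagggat
Krt18: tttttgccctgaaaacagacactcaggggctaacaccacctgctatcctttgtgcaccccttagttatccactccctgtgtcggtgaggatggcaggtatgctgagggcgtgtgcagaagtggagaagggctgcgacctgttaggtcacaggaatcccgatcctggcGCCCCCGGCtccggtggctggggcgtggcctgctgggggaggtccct

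Krt8, the type II keratin of simple epithelia, gave the highest keratin level of the 4 courses. In Mbd3f/- its FPKM was 3.17 in MEF, then 5.89, 33.5, 77.9, 98.1, 201, 176, 40.7 and 21.2 on days 1 to 8, and 5.16 in iPSC. Gatad2a-/- cells started at 17.3 as MEF and gave 4.51, 4.89, 28.2, 87.4, 97.6, 53.1, 66.5 and 36.8 on the same days, and ended at 4.43 as iPSC. Both depleted courses peaked on day 5 and had lower values in iPSC. WT-1 gave 0.0148 as MEF, 0.0122, 0.185, 0.484 and 1.36 over days 2, 4, 6 and 8, and 5.78 as iPSC. WT-2 gave 0.0456 as MEF, at most 0.190 on a day, and 4.52 as iPSC. The 4 iPSC libraries lay within 4.43 to 5.78, but the ES libraries were at 0.772 in Mbd3f/- and 19.5 in WT-1. Every depleted day lay above every WT day.

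Krt18, the usual type I partner of Krt8, followed another course. In Mbd3f/- its FPKM was 9.08 in MEF, then 5.01, 6.01, 2.10, 2.54, 9.37, 13.3, 20.02 and 21.1 on days 1 to 8, and 5.16 in iPSC. Gatad2a-/- cells had 16.6 as MEF, then 1.67, 1.69, 2.27, 5.64, 7.21, 12.0, 51.4 and 34.4, and 2.99 as iPSC. The ES level was 2.50 in Mbd3f/- and 25.5 in WT-1. Krt18 was lowest among the days on day 3 in Mbd3f/- and day 1 in Gatad2a-/-, and highest on day 8 and day 7, after the Krt8 peak of day 5. The ratio of Krt8 to Krt18 was 0.350 in the Mbd3f/- MEF, 38.7 on its day 4, and 1.01 on its day 8. The Gatad2a-/- ratio was 1.04 in MEF, 15.5 on day 4 and 1.07 on day 8. In the 4 iPSC libraries it lay between 0.334 and 1.48. In 10 libraries of MEF, days and iPSC, the correlation of the 2 levels on the log2(FPKM + 1) scale was -0.01 (Pearson) in Mbd3f/- and 0.59 in Gatad2a-/-, a description over stages that share a cell line and table.

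Against MEF, Krt8 rose and Krt18 fell on day 4 of the depleted systems. The log2 change was 3.42 ± 0.79 (SE, 2 systems, limma adjusted p = 0.00621) for Krt8, with 4.57 in Mbd3f/- and 2.27 in Gatad2a-/-. This call held in 10 of 10 alternatives (adjusted p 0.00124 to 0.0408). Without the Gatad2a-/- MEF library it was 4.87 (adjusted p = 0.00124). For Krt18 it was -1.46 ± 0.47 (adjusted p = 0.0322), and -1.001 without that library (adjusted p = 0.247), where the call was lost; in all it was lost in 7 of 10 alternatives (adjusted p 0.0288 to 0.247). In the daily course Krt18 had fallen by day 1 (-1.73 ± 0.58, adjusted p = 0.0491) and day 3 (-2.06 ± 0.58, adjusted p = 0.0174); both calls were lost without that library (adjusted p = 0.252 and 0.128). From day 8 to iPSC the depleted systems fell in Krt18 (-2.49 ± 0.47, adjusted p = 0.0327), whereas WT rose (2.87 ± 0.47, adjusted p = 0.000441). The depleted call was lost in 7 of 9 alternatives (adjusted p 0.00162 to 0.421), and the difference between the classes was not tested. Krt8 reads share sequence with the pseudogene Krt8-ps, which matches 26.9% of the 50-base windows of the Krt8 transcript, so its level is uncertain to that extent.

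**Figure D2:**
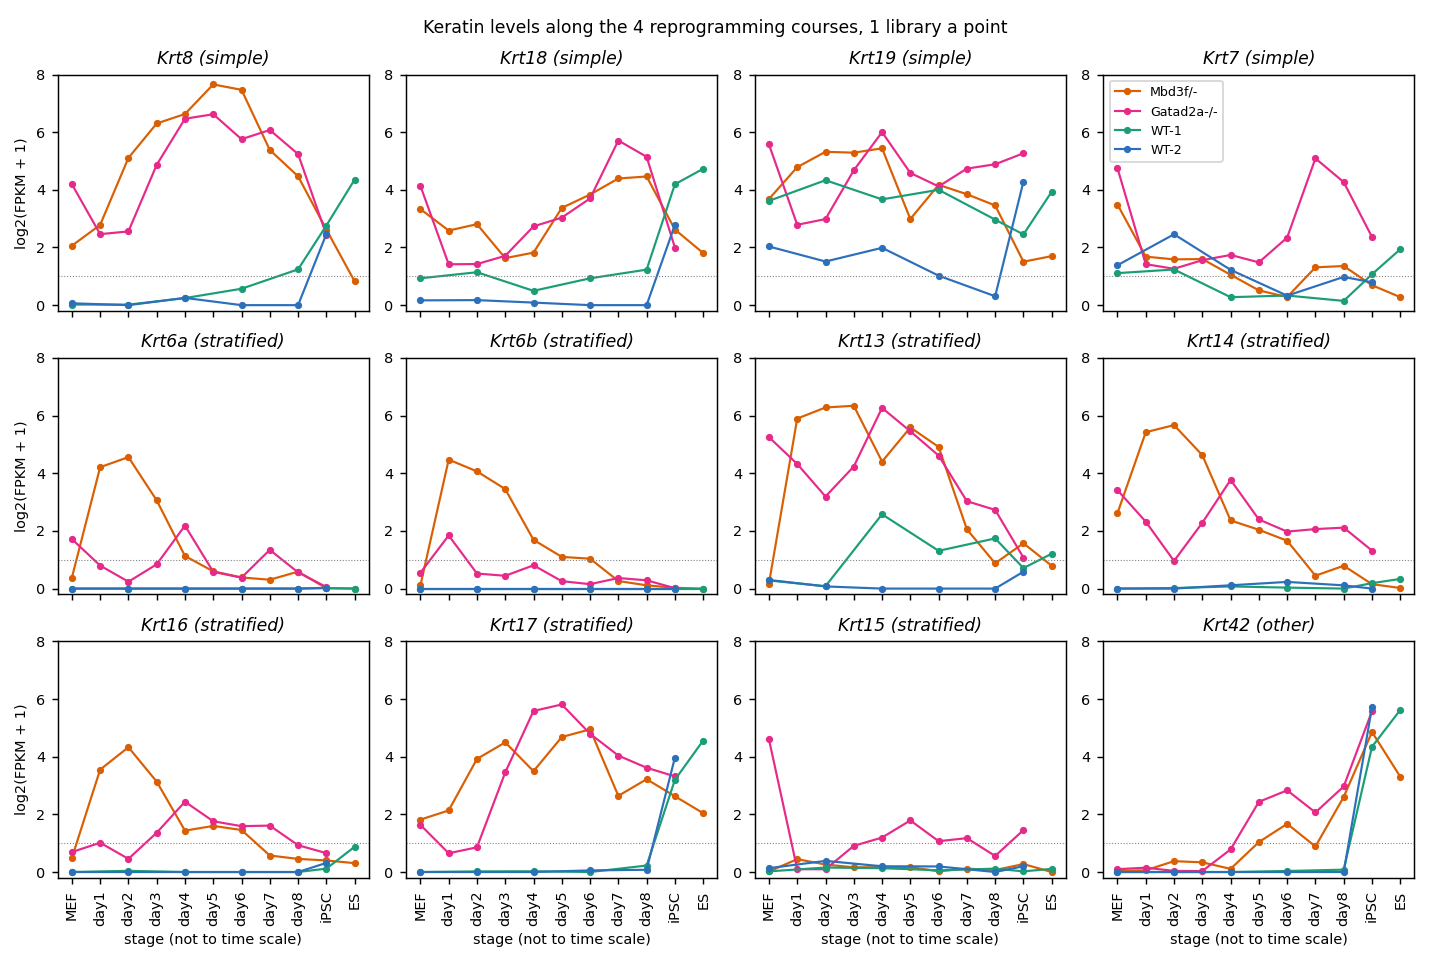
Levels of 12 keratins as log2(FPKM + 1) against stage, a line for each system and a point for each library, with a dotted line at an FPKM of 1. Krt8 peaks on day 5 in both depleted systems, Krt18 later, and WT-1 and WT-2 lie near 0 for most keratins until the iPSC stage, at which Krt42 reaches 19.3 and 51.6 FPKM in them.

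Krt19, a type I keratin that pairs with Krt8 in simple epithelia, was the most widely expressed keratin. Its Mbd3f/- level was 11.8 before induction, 26.6, 38.9, 38.1 and 42.4 on days 1 to 4, 6.94 to 17.1 on days 5 to 8, and 1.84 in iPSC. The Gatad2a-/- level was 46.7 before induction, 5.90 and 6.92 on days 1 and 2, 63.1 on day 4 and 37.5 in iPSC. WT-1 MEF had 11.3 and its days 6.82 to 19.2, while WT-2 MEF had 3.10 and its days 0.238 to 2.97. The iPSC value was 4.48 in WT-1 and 18.5 in WT-2. The 4 systems overlapped at most stages, and Krt19 passed the test in 0 of the 13 comparisons.

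Krt7, a type II keratin of glandular and mesothelial lining, was 10.2, 25.9, 1.16 and 1.61 in the MEF of Mbd3f/-, Gatad2a-/-, WT-1 and WT-2, and 2.21 and 1.68 on day 1 of the 2 depleted systems. In Gatad2a-/- it came back to 33.1 on day 7 and 18.3 on day 8, while in Mbd3f/- it stayed at 0.215 to 1.56 on days 4 to 8. Krt7 fell on day 4 of the depleted systems (log2 change -2.72 ± 0.58, limma adjusted p = 0.00402) and in iPSC against MEF in the mean of the 4 systems (-1.45 ± 0.41, adjusted p = 0.00897). The iPSC change was -2.80 in Mbd3f/- and -2.38 in Gatad2a-/-, but -0.04 in WT-1 and -0.59 in WT-2. Krt7 also fell on day 2 (-2.69 ± 0.87, adjusted p = 0.0406) and day 3 (-2.54 ± 0.87, adjusted p = 0.0440) of the daily course. Without the Gatad2a-/- MEF library the falls of day 4 (adjusted p = 0.0205) and iPSC (adjusted p = 0.0226) held, and those of days 2 and 3 did not (adjusted p = 0.122 and 0.133). Over all alternatives the day 4 call was lost in 1 of 10, without the replicate block (adjusted p = 0.0750), and the iPSC call in 2 of 10, without the block and without WT-2 (adjusted p = 0.0966 and 0.103). Of the 4 mesothelial markers, 3 (Wt1, Upk3b and Lrrn4) also fell on day 4. Their sum did not follow Krt7 on every day: it was 41.3 in the Mbd3f/- MEF and 45.4 on its day 1, and 80.6, 6.97 and 5.97 in the Gatad2a-/- MEF and on its days 7 and 8. Their part in the result was not tested. Krt20, the keratin of intestinal and urothelial surface cells, ranged from 0.0442 to 7.06 on depleted days, with no WT library above 0.236.

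Among stratified keratins, Krt13, the type I keratin of internal stratified epithelia, was the highest. The first of the 2 RefSeq promoters listed for Krt13 (GRCm38.p6, chr11:100121567-100121816, minus strand, 5′ to 3′) is shown because the gene was the highest keratin on days 1 to 3 of Mbd3f/-. Capitals mark its 1 AP-1 match, TGAATCA, whose first base is 196 bases before the start, and 6.75% of all promoters hold that motif in 250 bases. It holds 0 matches to the TATA box, GC box and AP-2 motifs. The second promoter (chr11:100120578-100120827), not printed, holds 2 AP-1 matches, both TGACTCA, whose first bases lie 183 and 34 bases before its start.
Krt13: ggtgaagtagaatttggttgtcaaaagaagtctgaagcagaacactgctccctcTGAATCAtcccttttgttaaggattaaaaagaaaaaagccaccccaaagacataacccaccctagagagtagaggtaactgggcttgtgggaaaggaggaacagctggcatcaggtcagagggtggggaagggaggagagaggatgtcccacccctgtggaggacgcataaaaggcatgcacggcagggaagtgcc

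In Mbd3f/- the Krt13 level was 0.129 in MEF, then 58.6, 76.9, 80.1, 20.2, 47.2, 29.2, 3.16 and 0.837 on days 1 to 8, and 1.97 in iPSC. The Gatad2a-/- cells had 37.1 as MEF, then 19.0, 8.15, 17.8, 76.0, 42.9, 23.5, 7.18 and 5.63, and 1.11 in iPSC. WT-1 reached 4.97 on day 4 and at most 2.34 at the other stages before iPSC. WT-2 had 0.231 as MEF and was listed at 0 on days 4, 6 and 8. Mbd3f/- was above its MEF on every day, whereas Gatad2a-/- was below its MEF on days 1 to 3 and above it on days 4 and 5. On day 4 the log2 change against MEF was 2.62 ± 1.32 (limma adjusted p = 0.152), which did not pass the test. Without the Gatad2a-/- MEF library Krt13 was called on days 1, 2, 3 and 4, but the depleted MEF are then the single Mbd3f/- library (0.129), and the Gatad2a-/- values of days 1 to 3 lie below their own MEF.

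Krt14, the basal type I keratin, and the wound-associated Krt6a, Krt6b and Krt16 had a sharp early maximum in Mbd3f/-. Krt14 stood at 5.14 before induction, 41.98, 49.95 and 23.7 on days 1 to 3, and 4.15 to 0.362 from day 4 to day 7. Krt6a went from 0.298 before induction to 17.5, 22.6 and 7.34 on days 1 to 3, and at most 1.19 after that. Krt16 went from 0.401 before induction to 10.7, 19.1 and 7.79 on days 1 to 3, and at most 2.03 after that. Day 1 or day 2 was the peak of all of these, and of Krt12, the corneal keratin, at 2.87. In Gatad2a-/- 3 of them were highest on day 4, at 12.7 for Krt14, 3.55 for Krt6a and 4.42 for Krt16, while Krt6b peaked on day 1 in both systems. WT-1 and WT-2 days gave at most 0.174 for Krt14 and 0.0286 for Krt16, and listed Krt6a and Krt6b at 0.

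Krt6b, a type II keratin, was 0.0800 in the Mbd3f/- MEF and 21.2 on day 1, and 0.462 and 2.59 in Gatad2a-/-. In the daily course it reached 1 only on days 1 to 6 of Mbd3f/- and day 1 of Gatad2a-/-. Krt6b passed the low-level filter only through these days, so some rise from MEF was fixed in advance. Its rise on day 1 was called (log2 change 2.83 ± 0.92, limma adjusted p = 0.0447), which restates these levels. The call was lost in 4 of 6 alternatives (adjusted p 0.0302 to 0.207). Reads of these genes are partly shared: 45.5% of Krt6a windows and 50.1% of Krt6b windows of 50 bases occur in another gene, mostly each other. For Krt16, 37.6% are shared, mostly with the predicted gene Gm11597 and Krt14, and Gm11597 reached 57.8 FPKM in the library with siRNA against Myc on day 7. The sources used here do not give how such reads were divided in counting.

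Krt5, the basal type II partner of Krt14, did not follow Krt14. It was 1.94 in the Mbd3f/- MEF and 5.87 in the Gatad2a-/- MEF, and on days 1 to 8 it was at most 0.541 in Mbd3f/- and 1.02 in Gatad2a-/-. WT-1 and WT-2 listed it at 0 in MEF and at no more than 0.0128 on any day. Among the 24 libraries of the shared stages, Krt5 reached 1 only in the Mbd3f/- and Gatad2a-/- MEF, so it passed the low-level filter only through them. A fall from the depleted MEF, and a difference from WT, were thereby fixed, and its calls below are given for completeness and support nothing. The fitted log2 change was -1.64 on day 4, -1.76 on day 8 and -0.90 in iPSC over the 4 systems. Without the Gatad2a-/- MEF library Krt5 did not pass the filter at the shared stages. Krt15, another basal type I keratin, was 23.3 in the Gatad2a-/- MEF, 0.0701 on day 1, and at most 2.46 on its later days.

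Krt17, a type I keratin of skin appendages and wounded epidermis, had a course close to that of Krt8. Its Mbd3f/- values were 2.53 as MEF, then 3.40, 14.2, 21.6, 10.3, 24.7, 29.9, 5.24 and 8.31 on days 1 to 8, and 5.19 in iPSC. Its Gatad2a-/- values were 2.11 as MEF, then 0.570, 0.811, 9.97, 47.1, 55.2, 26.8, 15.4 and 11.3, and 8.97 in iPSC. WT-1 and WT-2 were at most 0.169 before iPSC, and at 8.18 and 14.7 in iPSC. The ES level was 3.12 in Mbd3f/- and 22.6 in WT-1. Pearson's r of Krt17 with Krt8 over 10 stages was 0.90 in Mbd3f/- and 0.86 in Gatad2a-/-, as a description of stages that share a cell line and table. Krt17 rose on day 4 of the depleted systems (log2 change 2.82 ± 0.78, limma adjusted p = 0.0164). It was also higher in iPSC than in MEF over the 4 systems (2.42 ± 0.55, adjusted p = 0.00228), in each of the 4. It rose from day 8 to iPSC in WT (3.43 ± 0.78, adjusted p = 0.00419), a call lost without WT-1 or without WT-2 (adjusted p = 0.0770 and 0.273). Without the Gatad2a-/- MEF library the day 4 call was lost (adjusted p = 0.0757) and the iPSC call held (adjusted p = 0.00951). The day 4 call was also lost without WT-1 or WT-2 (adjusted p = 0.0766 and 0.0759), and the iPSC call without WT-2 (adjusted p = 0.0793).

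Krt42, a type I keratin placed in none of the textbook classes, lies 1852 bases from Krt17 on the minus strand of chromosome 11. Its RefSeq promoter (GRCm38.p6, chr11:100269952-100270201, minus strand, 5′ to 3′) is shown because Krt42 had the largest fitted change of any keratin between MEF and iPSC. Capitals mark 2 AP-2 matches, GCCTGGGGC and GCCTCAGGC, whose first bases lie 218 and 81 bases before the start, and 13.7% of all promoters hold that motif in 250 bases. The other 3 motifs have 0 matches.
Krt42: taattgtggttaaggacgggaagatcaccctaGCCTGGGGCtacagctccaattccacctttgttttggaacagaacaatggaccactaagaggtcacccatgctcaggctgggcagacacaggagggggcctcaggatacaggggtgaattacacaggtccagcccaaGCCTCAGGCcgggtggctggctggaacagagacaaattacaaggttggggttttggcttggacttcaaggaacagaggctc

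The Krt42 level in iPSC was 28.01 in Mbd3f/-, 46.8 in Gatad2a-/-, 19.3 in WT-1 and 51.6 in WT-2, and in ES it was 8.89 in Mbd3f/- and 48.2 in WT-1. In the 4 MEF libraries it was 0.0246, 0.0704 and listed at 0 in both WT systems. It was the highest keratin of all 4 iPSC and both ES libraries. Mbd3f/- cells had at most 0.299 on days 1 to 4, and 1.05, 2.18, 0.848 and 5.08 on days 5 to 8. Gatad2a-/- cells had 0.723 on day 4 and 4.41, 6.13, 3.19 and 6.83 on days 5 to 8. WT-1 and WT-2 gave at most 0.0581 on any day, so the 2 classes did not overlap on days 6 and 8.

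Among the 24 libraries of the shared stages, Krt42 reached 1 only in iPSC and on days 6 and 8 of the depleted systems. It passed the low-level filter only through them, so some rise to those stages from MEF or WT days was fixed in advance. Its calls against MEF or WT days restate the levels above. In the fit, Krt42 rose in iPSC against MEF by 5.09 ± 0.27 on the log2 scale (limma adjusted p = 1.93e-08), in each of the 4 systems. On day 8 it had risen by 2.72 ± 0.39 in the depleted systems (adjusted p = 0.000178), the WT change was 0.04 ± 0.39 (adjusted p = 1), and the difference between the classes was 2.68 ± 0.55 (adjusted p = 0.00581). From day 8 to iPSC it rose by 2.43 ± 0.39 in the depleted systems (adjusted p = 0.0147) and by 4.99 ± 0.39 in WT (adjusted p = 1.78e-06). The changes in iPSC against MEF, on depleted day 8 and from WT day 8 to iPSC passed the test in every alternative run. The depleted rise from day 8 to iPSC lost its call in 6 of 9 alternatives (adjusted p 0.0069 to 0.421). The class difference on day 8 lost it in 1 of 10, without WT-2 (adjusted p 0.00547 to 0.0594 over the 10), and its size was 5.03 with a pseudocount of 0.1. All 6 markers of pluripotent cells (Pou5f1, Nanog, Esrrb, Zfp42, Dppa5a and Tdgf1) also rose in iPSC against MEF, on depleted day 8 and from WT day 8 to iPSC. From depleted day 8 to iPSC 0 of 6 were called, and in Mbd3f/- their sum was 4750 on day 8 and 3623 in iPSC. Their summed level was 3623 to 6747 in iPSC, 3.28 to 4750 on depleted days and 0.266 to 306 on WT days, with 6 of 6 at 1 or more in every iPSC library. Their part in the Krt42 result was not tested.

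Beside these keratins, the counts stood as follows. In iPSC against MEF, 5 of 16 keratins were called (Krt17 and Krt42 rose; Krt5, Krt7 and Krt80 fell), against 53.0% of all genes tested. Krt80, a type II keratin of many epithelia, fell by 0.64 (limma adjusted p = 0.0388), a call lost in 6 of 9 alternatives. At the shared stages Krt80 reached 1 only in the WT-1 and Gatad2a-/- MEF (1.53 and 1.04) and on Gatad2a-/- day 4 (1.01). Some fall from MEF was thereby fixed in advance. The change was -1.34 in WT-1, -0.61 in Gatad2a-/-, -0.41 in WT-2 and -0.19 in Mbd3f/-. Without the Gatad2a-/- MEF library 5 keratins were again called, and they were Krt7, Krt8, Krt17, Krt18 and Krt42. On day 4 of the depleted systems 5 of 16 were called (Krt8 and Krt17 rose; Krt5, Krt7 and Krt18 fell), against 28.5% of all genes. On day 8, 2 of 16 were called (Krt42 rose and Krt5 fell), against 34.3%. These shares are near or below those of all genes, so nothing particular to the keratins is read from them. The day 4 median was 0.50 over the 16 keratins and 0.06 over all genes.

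The WT systems gave 0 of 16 keratin calls with limma on day 4 (2 genes or 0.00985% of all) and on day 8 (1.16%), and 0 keratins with an unadjusted p under 0.05 on either day. The difference between the class changes was called for Krt5 alone on day 4 (1 of 16, against 6.46% of all genes) and for Krt5 and Krt42 on day 8 (2 of 16, against 16.1%). Krt8 on day 4 differed by 3.21 ± 1.11 between the classes (adjusted p = 0.111), which did not pass; without the Gatad2a-/- MEF library Krt8 was the 1 keratin called in this difference. From day 8 to iPSC, 3 of 16 were called in WT (Krt17, Krt18 and Krt42 rose, against 35.3% of all genes) and 2 of 16 in the depleted systems (Krt42 rose and Krt18 fell, against 0.562%). Early in the daily course, 3 of 17 were called on day 1 (Krt6b rose; Krt5 and Krt18 fell; 23.1% of all genes), 2 of 17 on day 2 (Krt5 and Krt7 fell; 24.5%) and 3 of 17 on day 3 (Krt5, Krt7 and Krt18 fell; 30.5%). ES against iPSC gave 0 of 16 keratins, and 0 of 20401 genes, with limma, and 0 keratins and 356 genes had an unadjusted p under 0.05. This fit takes 1 shared difference over the 2 ES libraries, so opposite changes cancel. Krt8 was 5.16 in iPSC and 0.772 in ES of Mbd3f/-, but 5.78 and 19.5 in WT-1. Krt17 and Krt42 were likewise lower in ES of Mbd3f/- and higher in ES of WT-1, while Krt19 was higher in both ES. The 0 calls therefore do not show that ES and iPSC were alike.

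**Figure D3:**
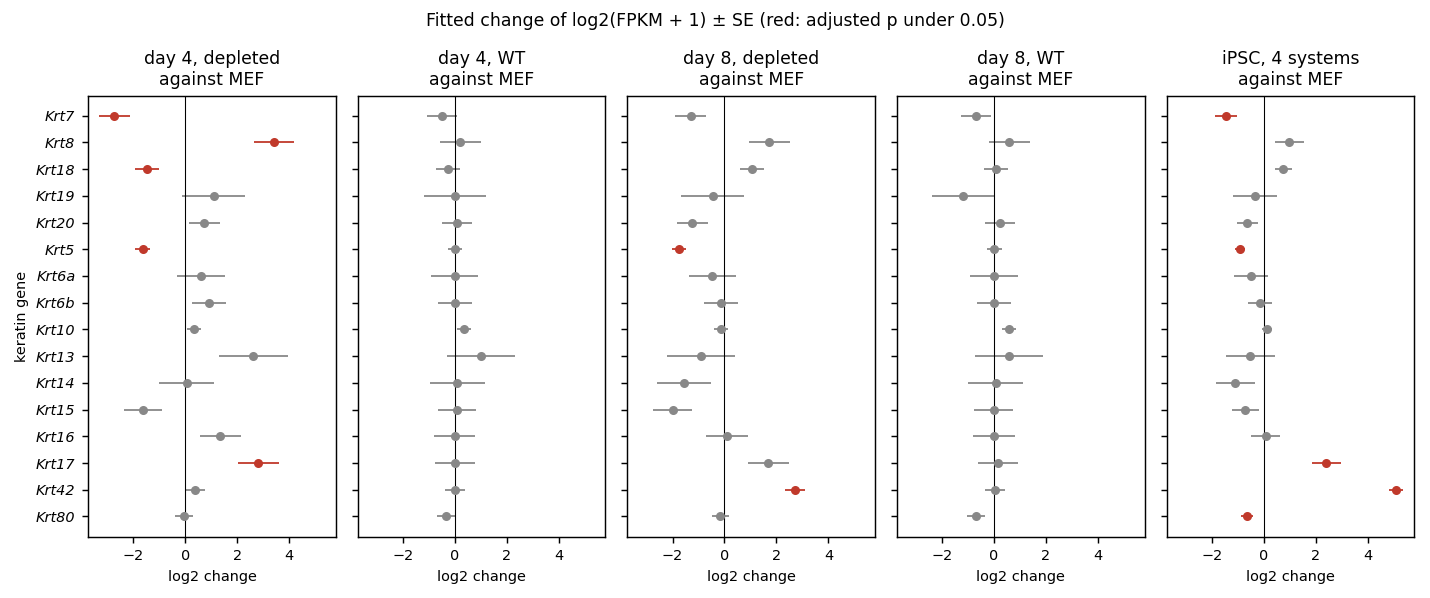
Fitted change of log2(FPKM + 1) against MEF with its standard error for the 16 keratins tested, in 5 comparisons, with adjusted p under 0.05 in red. Krt8 stands at 3.42 on day 4 of the depleted systems and Krt42 at 5.09 in iPSC, while every WT estimate on days 4 and 8 is grey.

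The balance of simple and stratified keratins changed along both depleted courses, though not in the same way. In Mbd3f/-, stratified keratins made up 78.6% of the summed keratin FPKM on day 1, 70.4% on day 2 and 55.4% on day 3, and 22.2% on day 4. Simple keratins made up 77.5% on day 4 and 86.2% on day 7. Summed stratified keratins gave 11.4 in MEF, 203 on day 2 and 11.04 on day 7, and the simple sum was 34.5 in MEF, 218 on day 5 and 53.8 on day 8. In Gatad2a-/- stratified keratins made up 46.6% in MEF, 62.3% on day 1, 46.9% on day 4 and 15.7% on day 7. Simple keratins made up 81.9% there on day 7. The Gatad2a-/- stratified sum fell from 101 in MEF to 29.7 on day 1 and 12.6 on day 2, and was 149 on day 4. Its higher share on day 1 was thus not a gain of stratified keratins. On WT days the total was 2.90 to 24.2, against 29.2 to 318 on depleted days, and 1.29 to 21.7 of it were simple keratins, with Krt19 the highest keratin on every WT-1 day. In iPSC, simple keratins held 25.2% to 48.5% and stratified 13.5% to 18.4%, with Krt42 as most of the remainder. These shares are descriptions of single libraries.

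**Figure D4:**
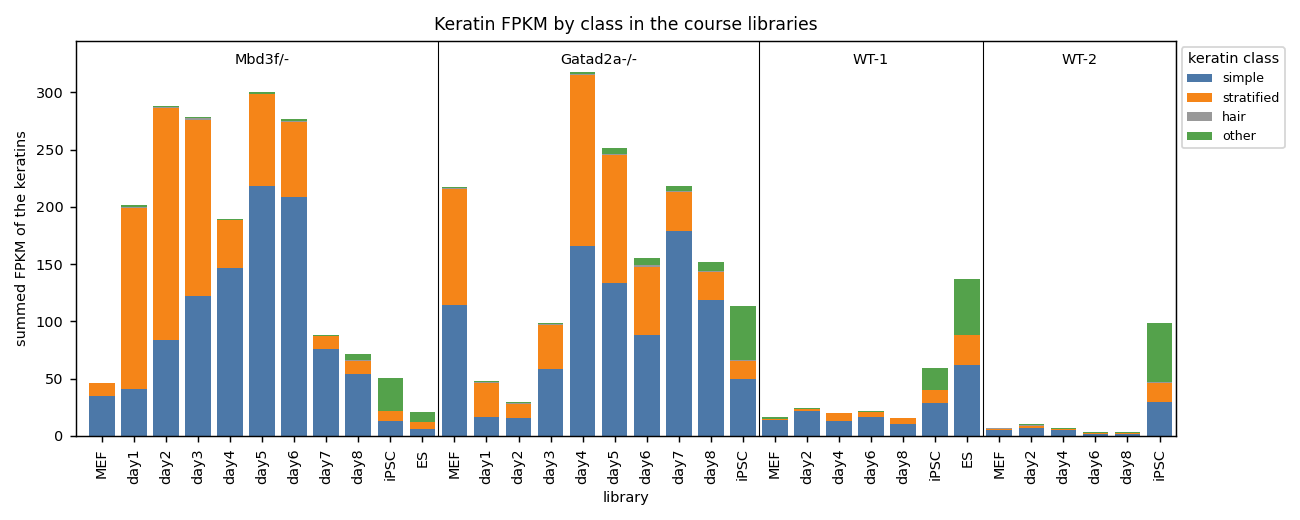
Summed FPKM of the keratins in each of the 34 course libraries, stacked by class. Stratified keratins dominate days 1 to 3 of Mbd3f/-, with 203 of 288 on day 2, simple keratins dominate its days 4 to 8, and the WT bars stay at or below 24.2 until iPSC, where the class that holds Krt42 is large.

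Krt10, a suprabasal type I keratin, was low and even, at 0.533 to 2.53 over the 34 course libraries, and was the 1 keratin at 1 or more on all WT days. Krt1, its type II partner, reached 1.10 on day 3 of Mbd3f/- and 1.504 with OSK and cMyc. The hair keratins Krt81 and Krt84 reached 1.26 (Mbd3f/- day 3) and 3.10 (siRNA against Myc, day 3).

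Other genes of epithelial cells were called on day 4 of the depleted systems, on which 13.1% of all genes rose and 15.5% fell. Of 16 tested desmosome and linker genes, 9 rose and 1 fell, with a median log2 change of 1.33 against 0.06 over all genes. Dsp, which ties keratin filaments to desmosomes, rose by 2.90 ± 0.56 (limma adjusted p = 0.00226), Pkp1, a desmosomal plaque protein, by 3.75 ± 0.56 (adjusted p = 0.000432), and the linker Plec fell by 1.26 (adjusted p = 0.0420). Of 13 epithelial regulators, 6 rose and 0 fell. Among those that rose were Grhl3 (2.90 ± 0.36, limma adjusted p = 0.000121) and Tfap2c (3.97 ± 0.50, adjusted p = 0.000135), which encode transcription factors of surface epithelium. Trp63 of the same list went the other way at low levels. It was 0.407 in MEF and 0.00479 on day 4 of Mbd3f/-, and 0.618 and 0.0179 in Gatad2a-/-. Of 8 tested keratinocyte markers, Krtdap (6.94 ± 0.59, adjusted p = 8.95e-06), Lgals7 (5.58 ± 0.60, adjusted p = 4.56e-05) and Dmkn (3.17 ± 0.65, adjusted p = 0.00313) rose. In the daily course 7 of 16 desmosome and linker genes rose on day 1, 9 on day 2 and 11 on day 3. Of all genes, 14.1%, 14.3% and 16.9% rose on these days. Krt8 was not called on them (limma adjusted p = 0.792, 0.651 and 0.0512), but no order of events is read from this. In Mbd3f/- Krt8 was 3.17 in MEF, 33.5 on day 2 and 77.9 on day 3. In Gatad2a-/- it was 17.3 in MEF, 4.89 on day 2 and 28.2 on day 3. In the WT systems 0 members of these 3 lists were called on day 4, on which 0.00985% of all genes were. The 2 WT systems differed in some of them. In WT-1 Ehf was 0.212 in MEF and 13.9 on day 4, and Elf3 was 0.0530 and 8.87. In WT-2 both were listed at 0 on day 4.

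The whole keratinocyte list of 14 genes had a summed level of 35.5 to 454 on depleted days with 4 to 9 genes at 1 or more, 12.7 to 69.8 on WT days with 1 to 6, and 35.0 to 91.3 in iPSC with 4 to 6. Krtdap was 215 and 217 on day 4 of the depleted systems and at most 1.04 on WT days. Lor and Flg, defining genes of cornified keratinocytes, were at most 0.588 and 1.82 in any depleted library, and Ivl at most 1.16. The trophoblast list (6 genes) had a sum of 1.14 to 9.37 on depleted days, with Tpbpa listed at 0 in all but 1 of these 16 libraries. The part of other cell types in the keratin levels was not tested.

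Vim, the fibroblast intermediate filament protein, fell on day 4 of the depleted systems (log2 change -3.87 ± 0.51, limma adjusted p = 0.000180) and in iPSC (-3.62 ± 0.36, adjusted p = 3.18e-06). Of 15 tested intermediate filament genes other than keratins, 3 rose and 2 fell on that day 4, where 28.5% of all genes were called. All 6 fibroblast markers fell on day 4 of the depleted systems. Their sum was 20.9 to 695 on depleted days and 2544 to 8426 on WT days.

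In the Myc table, each group is 1 library apart from the control MEF, so values are given with no test. The 2 control MEF libraries had the same 6 keratins at 1 or more, led by Krt19 (63.6 and 72.5) and Krt7 (46.4 and 51.9), with Krt14 at 5.13 and 5.79. OSK with cMyc on day 4 had 15 keratins at 1 or more, the most of any library, with Krt19 at 166, Krt13 at 95.3, Krt8 at 68.2 and Krt14 at 57.5. OSK alone had 12, with Krt13 at 189 and Krt19 at 12.7. cMyc alone had 7, led by Krt19 at 53.4, with Krt8 at 1.13, Krt13 at 0.974 and Krt14 at 4.47. Of 11 keratins at 1 or more in both OSK libraries, 8 were higher with cMyc and 3 lower (Krt10, Krt13 and Krt18). The ratio ran from 0.504 (Krt13) to 13.0 (Krt19).

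On day 7 the libraries with siRNA against Myc and with scrambled siRNA had the highest summed keratin levels of the series, 618 and 717. Krt14 was 152 with siRNA against Myc and 161 with scrambled siRNA. Krt16 was 187 and 158, and Krt13 was 94.95 and 125. These type I keratins of stratified epithelia were close in the 2 libraries. Krt8 was 48.8 and 78.7, Krt19 was 13.6 and 40.4, and Krt7 was 2.80 and 26.0. Of 12 keratins compared, 2 were higher with siRNA against Myc, and the ratio had a median of 0.862 and a lowest value of 0.108 (Krt7). The 4 mesothelial markers, with Upk3b at 5.73 and 78.6, were also lower with siRNA against Myc apart from Msln (148 and 132), and their part in the Krt7 values was not tested.

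On day 3 the library with siRNA against Myc expressed 14 keratins, with Krt13 at 66.6, Krt14 at 60.2 and Krt16 at 39.7. The library with the Myc inhibitor expressed 4, with Krt13 at 11.4, Krt14 at 1.73, Krt16 at 2.60 and Krt19 at 22.8, and Krt8 was at 0.0927. Krt42 was at most 0.696 in the 9 libraries. No scrambled siRNA library of day 3 was analysed here, so the day 3 libraries are set against each other only.

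**Figure D5:**
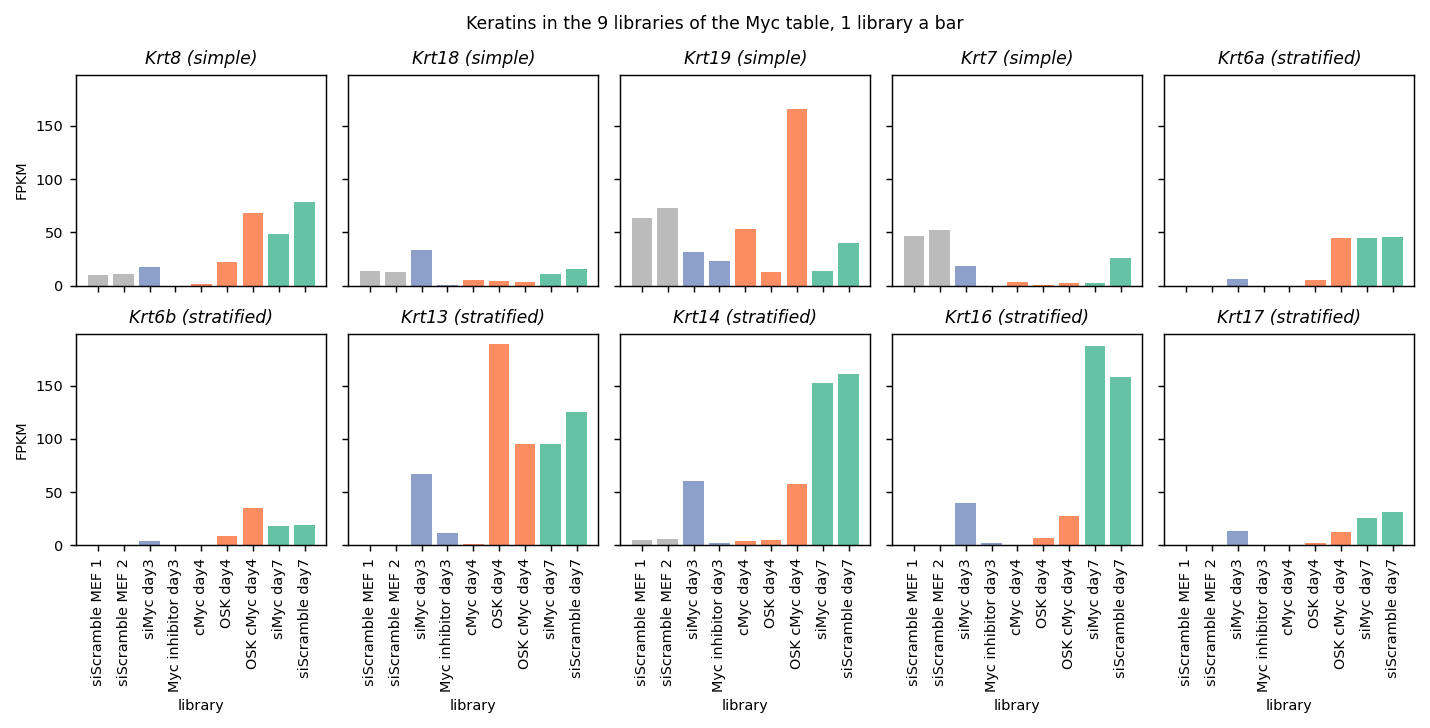
FPKM of 10 keratins in the 9 libraries of the Myc table, 1 bar a library, with the 2 control MEF in grey, day 3 in blue, day 4 in orange and day 7 in green. Krt14 and Krt16 stand above 150 in both day 7 libraries, Krt13 is highest with OSK alone at 189, and Krt19 is highest with OSK and cMyc at 166.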

How the data were processed

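Gene expression was measured by poly(A) RNA-seq in 43 mouse libraries. The authors deposited FPKM per gene in 5 tables. Per the submitters' processing notes the tools were CASAVA 1.8.2, TopHat2 2.0.10 and Cufflinks 2.2.1, on mm10. Neither the gene annotation nor the strand setting is given in the sources used here. Libraries were made with a TruSeq RNA kit, per the labels' protocols, and this kit does not mark strand. Depth cannot be read from FPKM, so no counting interval is given.

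The tables were joined by Ensembl gene identifier, leaving out 19 identifiers given more than once in a table. All 51 keratins were placed by identifier on the GRCm38 annotation. Genes that reached an FPKM of 1 in 2 or more libraries were fitted with limma 3.58.1 (R 4.3.3; trend and robust eBayes) on log2(FPKM + 1), with class-by-stage means and the system as a block. Benjamini-Hochberg adjustment ran over all genes tested, with a threshold of 0.05. The fits used 24 libraries and 20296 genes (shared stages, 10 residual degrees of freedom), 20 and 20189 (daily depleted course, 9) and 26 and 20401 (with ES, 11). As nothing names separate cultures, these p-values reflect only how far the samples spread, which may be technical. The block pairs the stages of a system, which is 1 cell line and 1 table per the labels. A system's deviations from its class mean correlated between stages by 0.747 to 0.848 (depleted) and 0.362 to 0.880 (WT) over 15 pairs of stages. The fit was tested on simulated data.

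Keratins at 10 or more in any library, and those called, are described with values; others at 1 or more are given by range. Alternatives were a pseudocount of 0.1, no filter, quantile normalization, no block, only the stages compared, leaving out systems or the Gatad2a-/- MEF library, and FPKM thresholds of 0.5 and 2. The members, classes and lists were chosen with earlier results of these data known. Promoter matches covered 11 of the 21 expressed keratins; the RefSeq table holds 35 of the 51.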

Additional observations from a re-analysis of the deposited data

Results flagged for a closer look

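The change of Krt5 from MEF to day 4 differed between the depleted and WT systems by -1.64 on the log2 scale, and that to day 8 by -1.77, both by a limma test of the difference. Krt5 passed the low-level filter only through the 2 depleted MEF libraries and WT listed it at 0 in MEF, so both values restate the depleted MEF level and support nothing further. The change of Krt42 to day 8 differed by 2.68, by the same test. Krt42 passed the filter only through iPSC and days 6 and 8 of the depleted systems, so this value restates its depleted day 8 level.

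In 4 further results the depleted and WT systems all moved in opposite directions, and these differences were not tested. The change of Krt18 from MEF to iPSC was negative in both depleted systems and positive in both WT systems, with means that differed by -4.36. From day 8 to iPSC, the means differed by -4.32 for Krt8, by -3.88 for Krt17 and by -5.37 for Krt18, each with lower iPSC than day 8 values in Mbd3f/- and Gatad2a-/- and higher ones in WT-1 and WT-2. At 2 systems a class, agreement of direction within each class is a weak criterion.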

How the results depend on the processing

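Each class has 2 systems, and the depth behind the FPKM is unknown, which limits the precision of every result. No direction turned in any alternative in which the keratin was fitted. A keratin that failed the low-level filter in an alternative has no entry there, so the lost calls below leave such cases out. For iPSC against MEF, Krt5 had 7 alternatives and Krt80 had 9, where Krt17 had 10. Calls of single keratins stayed past the threshold in 111 tests of alternative settings and were lost in 47, and when a system was left out they stayed in 46 and were lost in 23; the cause was not tested. Counts of keratins called follow, with the reported count in parentheses. With no replicate block, that is, without pairing stages by system, they were 1 (3) on day 1 and 1 (2) on day 2 of the daily course, 3 (5) on depleted day 4, 0 (1) and 1 (2) for the class differences of days 4 and 8, 3 (5) for iPSC against MEF and 0 (2) for depleted iPSC against day 8. With only the stages compared they were 1 (2) on day 2, 4 (2) on depleted day 8, 0 and 1 for the class differences of days 4 and 8, and 0 (2) for depleted iPSC against day 8. With a pseudocount of 0.1 the day 4 difference and depleted iPSC against day 8 gave 0. With quantile normalization the counts were 1 (3) on day 1, 1 (2) on day 2, 0 for the day 4 difference and 1 for depleted iPSC against day 8. Leaving out the Gatad2a-/- MEF library, an alternative chosen after seeing the data, gave 1 (2) for the day 8 difference and 8 (13) keratins expressed in MEF. At an FPKM of 2, 6 (10) keratins were expressed in iPSC. Leaving out a system in turn, where the lone system of a class is assumed to vary like the others, gave 2 to 8 keratins for iPSC against MEF, 3 to 9 and 2 to 6 for depleted days 4 and 8, 0 to 4 and 0 to 6 for the class differences of days 4 and 8, 1 to 5 and 0 to 6 for WT and depleted iPSC against day 8, 0 to 1 for ES against iPSC, and 0 for WT days 4 and 8. Leaving out a system could not be fitted for the daily course, which then has no residual degrees of freedom. Among the 13000 highest genes of a library, also added after seeing the data, 21 keratins were expressed in any library, as at an FPKM of 1, with 17 (19) on depleted days and 8 (10) in iPSC.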
